A study of Rattus norvegicus with 6 samples.

Results

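The aorta is supplied by sympathetic nerves. The 10 genes of sympathetic nerves and synaptic vesicles studied here were Th, Dbh, Npy, Chga, Snap25, Syt1, Syt5, Gap43, Nefl and Nefm. All probe sets of the array that carry 1 of these symbols alone in the platform annotation were taken, which gave 13 of 8799 probe sets and 9 of the 10 genes. No probe set carried Chga, a protein of catecholamine storage granules, as its single symbol, so Chga was not analysed here. The rule used symbols and no measured value, but the genes were put together with earlier results of these data known. The array measured total RNA from the aorta of spontaneously hypertensive rats (SHR), inbred animals whose blood pressure rises with age. Runners had voluntary access to a running wheel for 5 weeks, and non-runners were rats of the same strain that did not run. There were 3 arrays a group, named here by their chip letters A, B and C. A pool of 3 aortae was put on each, so that differences between single animals were not measured. Sex, age, the division of animals among pools and how much tissue around the vessel was kept are not stated in the labels, and p-values measure only the spread between pools.

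Sympathetic neurons make noradrenaline, which contracts smooth muscle of the vessel wall. Their cell bodies lie in ganglia beside the aorta and the spine, and their axons run in the outer layer of the vessel and in the fat around it. Tyrosine hydroxylase (Th) makes the precursor of dopamine, and dopamine beta-hydroxylase (Dbh) turns dopamine into noradrenaline inside the vesicle. Vesicles then fuse with the membrane through SNARE proteins such as Snap25, with synaptotagmins (Syt1, Syt5) as sensors of calcium. In a whole vessel, fewer cells of a type and less RNA per cell cannot be told apart. Whether the signal of the genes studied came from sympathetic nerves was not tested.

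The start regions of both synthesis enzymes are shown because these genes define the sympathetic transmitter and because Th had 1 of the larger differences. They come from RefSeq for the assembly GRCr8, a Brown Norway reference and not the hypertensive strain, and stop before the first annotated base of the gene. Of the genes studied, 4 had an entry in that table. In the Th region, chr1:207508277-207508468 on the minus strand, capitals mark a cyclic AMP response element (CRE), spelled TGACGTCA. In the Dbh region, chr3:30886078-30886312 on the plus strand, capitals mark the core of that element, spelled TGACG and read there on the opposite strand.
Th: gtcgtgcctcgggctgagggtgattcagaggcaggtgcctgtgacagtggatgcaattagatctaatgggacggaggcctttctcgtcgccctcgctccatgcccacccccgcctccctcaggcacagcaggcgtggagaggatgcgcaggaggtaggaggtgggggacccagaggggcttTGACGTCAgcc
Dbh: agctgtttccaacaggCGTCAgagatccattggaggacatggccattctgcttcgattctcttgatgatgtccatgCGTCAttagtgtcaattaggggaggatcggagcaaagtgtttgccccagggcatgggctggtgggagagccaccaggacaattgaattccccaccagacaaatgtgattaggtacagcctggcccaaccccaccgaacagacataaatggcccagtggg
Searched on both strands, the full CRE was in 1.59% of 33469 windows of 250 bases, and the core, which the full element contains, in 18.2%. Unlike the printed regions, these windows were not cut at the gene boundary and can hold transcribed bases. A match of letters is a description and does not show that a factor binds there. The full element was in the window of Th and in no other of the 4 windows (Th, Dbh, Npy and Syt1). Other motifs were searched in the same way. The AP-1 site (TGACTCA) and the TATA box (TATAAA) were in 0 of the 4 windows, and in 4.05% and 12.9% of all. The GC box (GGGCGG) was in those of Npy and Syt1 and in 30.5% of all. The E box (CANNTG, N being any base) was in those of Th, Dbh and Syt1 and in 65.5% of all. The letters TTCAGCACC, the left part of the RE1 element through which a repressor silences neuronal genes in other cells, was in 0 of the 4 windows and in 0.305% of all.

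The values are deposited intensities on a linear scale, with no detection calls. As a control level, an intensity of 40.8 was used, the 95th percentile over 19 of the chip controls that should find no target (yeast genes and sense strands). Log2 differences are runner minus non-runner after a pseudocount of 2.4 and quantile normalization, and groups were compared with limma over 5244 probe sets, the dimmest 40% being left out. The members were mostly dim. Only Th and Npy had mean intensities above the control level in both groups, and 6 genes (7 probe sets) were bright enough to be tested. The tissue label was borne out by smooth muscle markers, which were above the control level on every array for all 5 of the markers present. Non-runner B stood apart in RNA quality, with a 3'/5' ratio of beta-actin of 2.14 against 1.22 to 1.67 on the other arrays.

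By limma no member had an adjusted p under 0.05, and 0% of the 3173 genes tested had one. At an unadjusted p under 0.05, Th, Snap25 and Syt5 were lower in runners, 3 of the 6 tested genes against 4.48% of all tested genes. All 6 tested genes had a difference below 0, as had 53.9% of all tested genes. Their median difference was -0.40 on the log2 scale, and that of all tested genes -0.02. The unadjusted count was 1 without non-runner A or without runner C, and 4 without runner B. Without non-runner B it was 3 and the median -0.47. The members were chosen knowing that nerve genes lay low in runners, so these counts are no independent support for that direction. Syt5 had a runner mean under the intensity of 17.9 at which the filter on dim probe sets fell, and so was tested because of its level in non-runners.

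**Figure D1:**
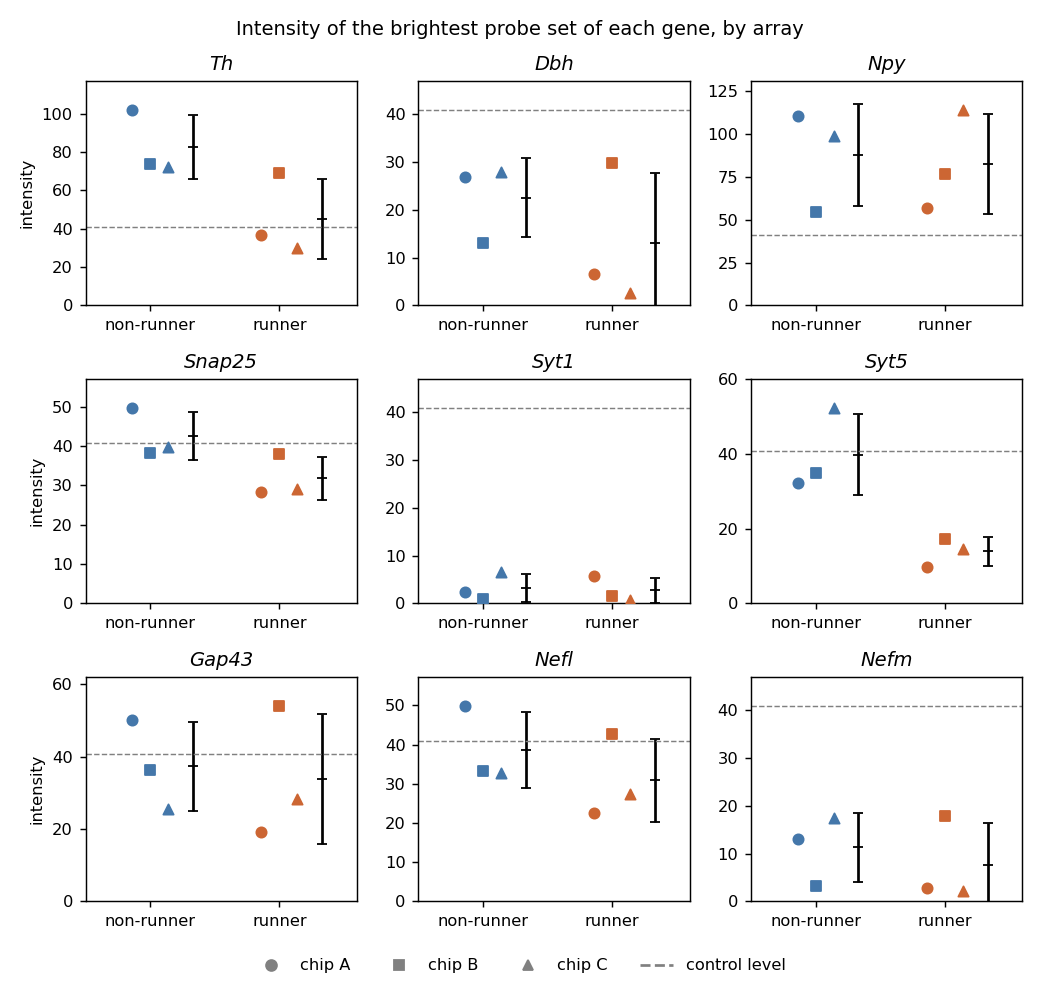
Deposited intensity (linear axis from 0) of the brightest probe set of each of the 9 genes on 3 non-runner (blue) and 3 runner (orange) arrays, with the mean and SD beside each group (bars end at 0 where the SD exceeds the mean) and the control level of 40.8 dashed. Groups do not overlap for Th, Snap25 and Syt5, and Dbh, Syt1 and Nefm lie below the control level on every array.

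Th gave its 3 lowest intensities in the runners. It measured 101.7, 73.9 and 72.0 on non-runners A, B and C, and 36.6, 68.8 and 29.8 on runners A, B and C. Runner B thus lay just under the lowest non-runner, while runners A and C lay below the control level. Non-runners averaged 82.5 ± 16.6 and runners 45.1 ± 20.8 (SD, n = 3), a ratio of 1.83. The log2 difference was -0.93 ± 0.31 (SE, 95% interval -1.64 to -0.22), with a limma unadjusted p of 0.0162 and an adjusted p of 0.566. The exact permutation test gave p = 0.1, two-sided, the smallest that 3 arrays against 3 allow. Leaving out single arrays gave -1.27 without runner B to -0.65 without runner C. Groups did not overlap, with runners lower, for 3 of the 6 tested genes (Th, Snap25, Syt5) and for 8.13% of all tested genes.

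Dbh did not separate the groups. Its intensities were 26.9, 13 and 27.8 on non-runners A, B and C and 6.6, 29.7 and 2.7 on runners A, B and C, all under the control level. Runner B held the highest value of the 6 and runners A and C the lowest. The probe set was too dim to be tested. Without the filter its difference was -1.12 ± 0.67 (SE, 95% interval -2.72 to 0.47), with a limma adjusted p of 0.787, so that no difference was detectable at this signal.

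Npy, the peptide that sympathetic nerves release beside noradrenaline, was above the control level on all 6 arrays. It measured 110.2, 54.3 and 98.4 on non-runners A, B and C and 56.7, 76.8 and 113.6 on runners A, B and C. The groups overlapped fully, the lowest value being that of non-runner B and the highest that of runner C. The means were 87.6 ± 29.5 and 82.4 ± 28.9 (SD, n = 3). The log2 difference was -0.08 ± 0.31 (SE), and its 95% interval, -0.81 to 0.64, still holds changes of the size seen for Snap25. The sign depended on single arrays: it was 0.13 without runner A, 0.10 without non-runner A and -0.39 without non-runner B. Th and Npy therefore parted on runner C, where Th had its lowest value and Npy its highest.

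Snap25, a SNARE protein of vesicle fusion, had 4 probe sets. The brightest, AB003991_at, measured 49.6, 38.2 and 39.8 on non-runners A, B and C and 28.2, 38.0 and 29.2 on runners A, B and C. Non-runner B and runner B were nearly equal, and non-runner A alone was above the control level. The log2 difference was -0.43 ± 0.18 (SE, 95% interval -0.84 to -0.02), with a limma unadjusted p of 0.0423 and an adjusted p of 0.595. A second probe set of the same transcript, AB003991_g_at, gave 26.0, 18 and 17.7 against 14.1, 23.6 and 16.5, with a difference of -0.21 ± 0.21 (SE) and overlapping groups. The other 2 probe sets stayed at or under an intensity of 2.5 on every array and were not tested.

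Syt5, a synaptotagmin, had the smallest p of the members. It measured 32.3, 34.8 and 52.2 on non-runners A, B and C and 9.8, 17.3 and 14.6 on runners A, B and C. Every runner array lay well under every non-runner array, but only non-runner C exceeded the control level, and both means (39.8 ± 10.8 and 13.9 ± 3.8, SD, n = 3) lay below it, so no fold is given. The log2 difference was -1.41 ± 0.24 (SE, 95% interval -1.98 to -0.85), with a limma unadjusted p of 0.000415 and an adjusted p of 0.209. As arrays were left out it ran from -1.57 to -1.19. Syt1, the main calcium sensor of fast release, was between 0.8 and 6.6 on all arrays and was not tested.

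The brightest probe sets of the axonal members did not separate the groups. Gap43, a protein of growing axons, measured 50.1, 36.4 and 25.4 on non-runners A, B and C and 19.1, 53.9 and 28.3 on runners A, B and C. Runner B held the highest value and runner A the lowest. Its difference was -0.25 ± 0.35 (SE, limma adjusted p = 0.865), and 0.03 without runner A. Nefl, the light neurofilament chain of the axon skeleton, measured 49.8, 33.3 and 32.8 against 42.7 on runner B and 22.6 and 27.3 on runners A and C. Its difference was -0.36 ± 0.25 (SE, 95% interval -0.94 to 0.21, limma adjusted p = 0.739). Leaving out runner B moved it to -0.61 and leaving out non-runner A to -0.20.

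A second and much dimmer Nefl probe set, M25638_s_at, read 4.8, 8.9 and 4.6 on non-runners A, B and C and 2.3, 3.4 and 3.9 on runners A, B and C. There the groups did not overlap, but all values were far below the control level and it was not tested. Without the filter its difference was -0.65 ± 0.23 (SE, limma unadjusted p = 0.0266, adjusted p = 0.697). Nefm, the medium neurofilament chain, read 13.1, 3.3 and 17.4 on non-runners A, B and C and 2.8, 17.8 and 2.2 on runners A, B and C. Its values fell into a high set (non-runners A and C, runner B) and a low set (the other three arrays), which cut across the groups, and it was not tested either.

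**Figure D2:**
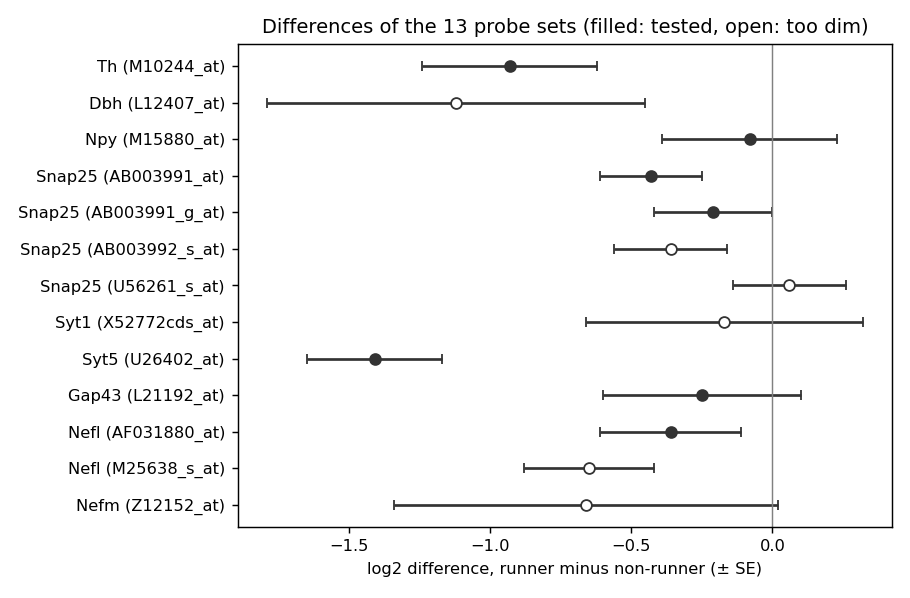
Log2 difference, runner minus non-runner, with SE (limma, 3 arrays a group) for the 13 probe sets; filled points were tested and open points were too dim and come from the fit without the filter. Syt5 (-1.41) and Th (-0.93) lie furthest from 0 among the tested probe sets, and 1 Snap25 probe set (0.06) lies above 0.

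Arrays of the same group also differed from each other in these genes. Runner B was the highest of the 3 runner arrays for 7 of the 9 genes, against 31.7% of all genes, with Npy (highest on runner C) and Syt1 (highest on runner A) as the exceptions. This array was singled out after its values were seen. The mean level of the 6 tested genes, each centred on its mean over the 6 arrays, was 0.50, 0.10 and 0.27 on non-runners A, B and C and -0.59, 0.12 and -0.40 on runners A, B and C (log2). Runner B was thus level with non-runner B, the array that stood apart in RNA quality, and the groups overlapped through these arrays. Dbh and Nefm had the same order over all 6 arrays, from runner B, non-runner C and non-runner A down to non-runner B, runner A and runner C.

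**Figure D3:**
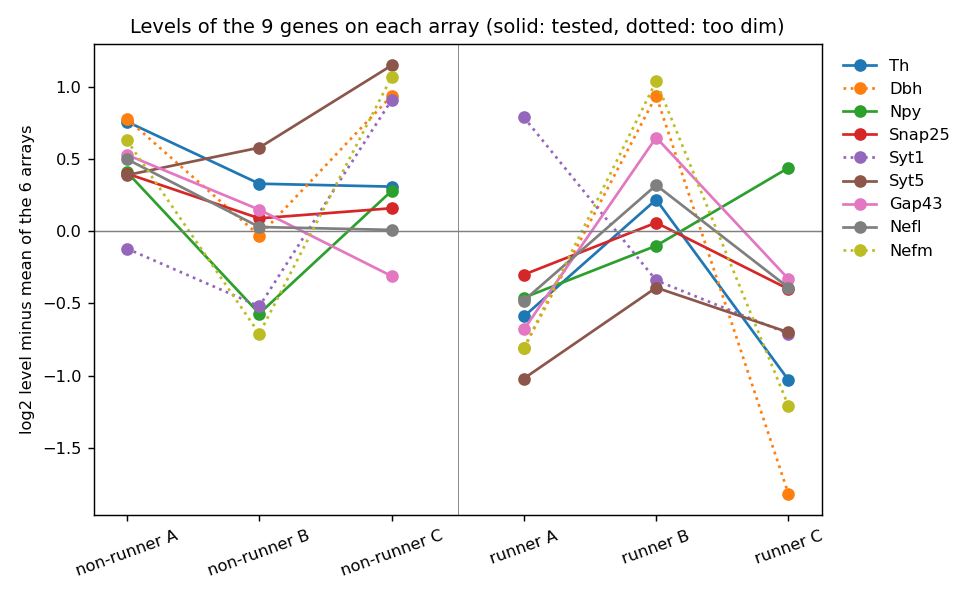
Log2 level of the brightest probe set of each of the 9 genes on each array, less its mean over the 6 arrays; solid lines are tested genes and dotted lines genes too dim to test, and lines join arrays only to mark a gene. In runners, 7 of the 9 genes are highest on array B, while Npy is highest on array C and Syt1 on array A.

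Fat around the vessel is also supplied by these nerves, and brown fat markers varied between arrays. Ucp1, the uncoupling protein of brown fat, measured 1407, 764 and 1582 on non-runners A, B and C and 1191, 1529 and 881 on runners A, B and C (log2 difference -0.02 ± 0.30, SE). Runner B was the highest runner array for Ucp1, as it was for Th, Dbh and Nefm. The other fat markers did not share this order. Among runners, Cidea was also highest on runner B, but Fabp4 and Plin1 were highest on runner A and Cfd and Dio2 on runner C. The summed intensity of the 6 fat markers present was 1980 to 3404 in non-runners and 2442 to 3298 in runners. Fabp4, which carries fatty acids in fat cells, was higher in runners at an unadjusted limma p of 0.0136 (0.51 ± 0.16, SE, adjusted p = 0.533), and Cidea, a lipid droplet protein of brown fat, differed by -0.23 ± 0.24 (SE). Of the list of 9, Dio2 and Plin1 were below the control level on every array. The part of fat content in the nerve results was not tested.

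Genes that act beside Th and Dbh showed no shared direction. Of 11 other genes of noradrenaline synthesis and handling, 9 were present and 6 tested, with 2 lower and 4 higher, a median of 0.12 and 0 passing the adjusted test. Among all tested genes 53.9% were lower. Slc6a2, the transporter that takes noradrenaline back into the nerve, measured 43.0, 38.4 and 31.8 on non-runners A, B and C and 27.7, 37.9 and 48.9 on runners A, B and C (log2 difference -0.03 ± 0.20, SE). It was highest on runner C, where Th was lowest, but its means (37.7 in non-runners, 38.2 in runners) both lay below the control level. Maob, a monoamine oxidase that breaks down amines, measured 31.2, 25.7 and 28.6 in non-runners and 34.9, 41.1 and 49.9 in runners, without overlap (0.48 ± 0.16, SE, limma unadjusted p = 0.015, adjusted p = 0.547). Maob lay below the control level on every non-runner array. It was the list's 1 higher gene at an unadjusted p under 0.05, where 2.93% of all tested genes were. Maoa, the other oxidase, differed by 0.09 ± 0.20 (SE). The vesicular transporter Slc18a2 and the decarboxylase Ddc were below the control level on every array and were not tested.

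Of 30 vesicle fusion genes other than Snap25, Syt1 and Syt5, 26 were present and 12 tested. Of the 12, 10 were lower and 2 higher, with a median of -0.09, and 53.9% of all tested genes were lower. At an unadjusted p under 0.05, 2 were lower, Cacna1b and Cplx1, against 4.48% of all tested genes, and 0 were higher; 0 passed adjusted. Cacna1b, the N-type calcium channel that opens transmitter release in sympathetic nerves, measured 68.4, 49.2 and 48.1 on non-runners A, B and C and 36.1, 19.3 and 12.7 on runners A, B and C. The groups did not overlap, and all 3 runner arrays lay below the control level. Its log2 difference was -1.33 ± 0.35 (SE, limma unadjusted p = 0.00534, adjusted p = 0.412). Cplx1, a complexin that clamps SNARE proteins, is named after its values were seen; it measured 58.8, 65.6 and 57.1 in non-runners and 39.0, 45.1 and 37.9 in runners (-0.57 ± 0.16, SE, limma adjusted p = 0.431). On every array, 5 of these 26 genes lay above the control level. Vamp2, a vesicle SNARE, differed by -0.05 ± 0.18 (SE) and Napa, which takes spent SNARE complexes apart, by -0.01 ± 0.15. Stx1a differed by -0.03 ± 0.18, Syn1 by -0.12 ± 0.17 and Vamp1 by -0.33 ± 0.16. These 5 were named after their values were seen, as was Sv2b, a vesicle glycoprotein too dim to be tested. Sv2b read 2.6 to 4.8 in non-runners and 12.3 to 15 in runners (1.36 ± 0.17, SE, limma adjusted p = 0.298 without the filter).

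Axon genes other than Gap43, Nefl and Nefm were mostly lower, without a call. Of these 20 genes 15 were present and 11 tested. Of the 11, 10 were lower, as were 53.9% of all tested genes, and the median was -0.28. At an unadjusted limma p under 0.05, 0 of them were lower, against 4.48% of all tested genes. L1cam, an axon adhesion molecule, measured 60.1, 57.6 and 57.9 on non-runners A, B and C and 41.7, 65.5 and 16.9 on runners A, B and C (-0.69 ± 0.42, SE). Runner B again held the highest value, here above all non-runners. Crmp1, a protein of axon guidance, differed by -0.69 ± 0.39 (SE) and lay below the control level on every array. Only 3 of the 15 genes lay above it on every array, and they are named after their values were seen. They were Mapt (-0.07 ± 0.16, SE), Ncam1 (-0.05 ± 0.19) and Stmn4 (-0.14 ± 0.14). Of 15 genes of sympathetic neuron identity 10 were present and 4 tested, with a median of -0.11. Prph, peripherin, the intermediate filament of peripheral neurons, measured 47.6, 29.7 and 39.5 against 18.4, 49.6 and 24.9 on runners A, B and C (-0.44 ± 0.33, SE). Its means, 38.9 in non-runners and 31 in runners, lay below the control level. Uchl1, a ubiquitin hydrolase of neurons named after its values were seen, was also highest on runner B, at 85.9, with 31.7 and 40 on runners A and C. Chrnb4, a nicotinic receptor subunit of ganglia, differed by 0.14 ± 0.14 (SE). The transcription factors Phox2a, Hand2, Gata3 and Isl1 were below the control level on every array.

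Dense core granule and peptide genes other than Npy and Chga had 11 of 12 present and 5 tested, 3 lower and 2 higher, with a median of -0.13. Among all tested genes 53.9% were lower. The granule proteins Chgb, Scg2, Scg3 and Scg5 were below the control level on every array. Cpe, a carboxypeptidase that trims peptide hormones and is not restricted to nerves, was bright and differed by -0.22 ± 0.18 (SE). Cadps, which primes granules for release, differed by 0.26 ± 0.18 and lay below the control level on every array.

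Receptors for the nerve's transmitters showed no shared direction. Of 12 NPY and adrenergic receptors 10 were present and 6 tested, 3 lower and 3 higher, with a median of 0.01 and 0 at an unadjusted p under 0.05. Over all tested genes, 53.9% were lower, and 4.48% were lower and 2.93% higher at that p, so these counts are near the background. Adra1d, an alpha-1 receptor of the aortic smooth muscle, measured 106.5, 64.7 and 104.5 on non-runners A, B and C and 87.6, 94.5 and 125.2 on runners A, B and C (0.17 ± 0.23, SE). Npy1r, a receptor for Npy, differed by -0.17 ± 0.19 (SE) and lay below the control level on every array. Of 17 neurotrophic factors and receptors, through which target tissue maintains its nerves, 12 were present and 8 tested, 3 lower and 5 higher, with a median of 0.06. Gfra2 and Gfra1, receptors for factors of the GDNF family, differed by -0.28 ± 0.17 and 0.22 ± 0.17 (SE). Gdnf itself, named after its values were seen, was below the control level on every array and not tested; it read 16.9 to 22.3 in non-runners and 6.1 to 7.3 in runners (-1.35 ± 0.20, SE, limma unadjusted p = 0.000279 and adjusted p = 0.298 without the filter).

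Schwann cells, which wrap these axons, were measured by 15 markers. Of these, 11 were present and 9 tested. Of the 9, 8 were lower, as were 53.9% of all tested genes, and the median was -0.27. At an unadjusted limma p under 0.05, 1 of the 9 was lower, against 4.48% of all tested genes. The summed intensity of the 11 was 1533 to 1879 in non-runners and 1233 to 1391 in runners, and the sums did not overlap. Most of each sum was Pmp22 alone, at 897 to 1170 in non-runners and 771 to 814 in runners. Taken singly, runners lay lower without overlap for Pmp22, Mag and Prx, as for 8.13% of all tested genes. Mag measured 170.8, 149.3 and 150.8 on non-runners A, B and C and 70.5, 132.6 and 146.3 on runners A, B and C (-0.47 ± 0.26, SE). Prx lay below the control level on every runner array. Mag and Prx are named after their values were seen. Groups overlapped for S100b, Erbb3, Egr2, Cnp, Mal, Gjb1 and Sox10, so the separation of the sums does not describe the 11 markers alike. Mbp and Sox10 were below the control level on every array and were not tested. Mbp, a myelin protein, lay the other way, at 12.7 to 13.9 in non-runners and 20.7 to 30.2 in runners (0.69 ± 0.19, SE, limma unadjusted p = 0.00817 and adjusted p = 0.52 without the filter). S100b, a calcium-binding protein of Schwann cells that fat cells also make, measured 198.4, 246.0 and 281.8 on non-runners A, B and C and 121.2, 198.8 and 185.4 on runners A, B and C (-0.53 ± 0.23, SE, limma unadjusted p = 0.047, adjusted p = 0.611). Pmp22, a myelin protein that other cells also make, differed by -0.33 ± 0.15 (SE). The part of Schwann cell content in the nerve results was not tested.

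Markers of the adrenal gland, other nerve types and smooth muscle had 0 tested genes at an unadjusted limma p under 0.05. Of all tested genes, 4.48% were lower and 2.93% higher at that p. With so few genes tested in these lists, a count of 0 is near those shares. Of 8 genes of the adrenal medulla and cortex 5 were present and 1 was tested, Pnmt, which turns noradrenaline into adrenaline (-0.26 ± 0.16, SE). Its means, 53.4 in non-runners and 44.6 in runners, lay above the control level. The adrenal cortex genes Cyp11a1, Cyp11b2, Cyp21a1 and Star were below the control level on every array. All 7 sensory nerve markers were below it too, and the 2 tested, Tac1 and P2rx3, differed by 0.06 ± 0.26 and 0.07 ± 0.19 (SE). Of 6 cholinergic markers 5 were present and 3 tested, with a median of -0.09. Slc18a3, above the control level on every array, differed by -0.09 ± 0.15 and Ache by -0.15 ± 0.19 (SE). Smooth muscle markers, the bulk of the tissue, had a median of -0.01 over 5 genes, with Acta2, Myh11 and Cnn1 at 0.14 ± 0.22, -0.14 ± 0.14 and -0.11 ± 0.17 (SE).

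**Figure D4:**
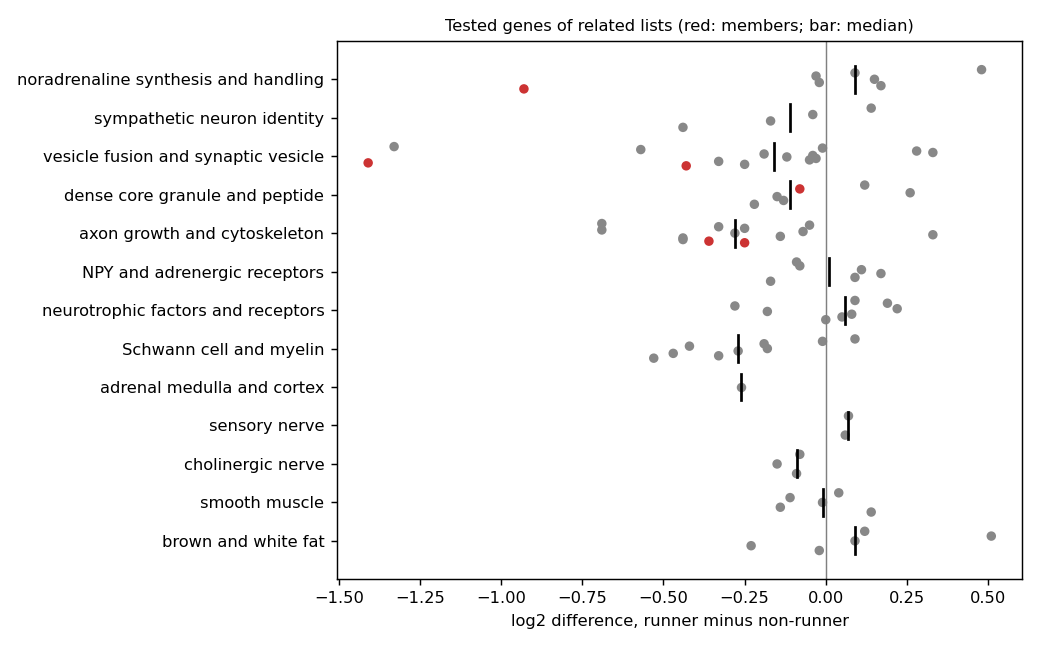
Log2 difference, runner minus non-runner, of each tested gene in 13 lists of related genes; red points are the 6 tested members, grey points other genes, and a black bar marks the list's median. Medians, members included, run from -0.28 (axon) and -0.27 (Schwann cell) to 0.09 (noradrenaline handling, fat); that of vesicle fusion is -0.16, and -0.09 without the members.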

How the data were processed

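The authors deposited linear intensities, 1 per probe set and array; their software is not given in the sources used. From the values, the authors' arrays share a trimmed mean (2% cut at each end) of 99.58 to 99.89. Genes were named from the platform annotation. A pseudocount of 2.4, equal to the 10th percentile of positive values, was added before taking log2, so fold changes of dim genes are understated. Array medians differed 1.13 times, over a limit of 10%, so quantile normalization was applied. After dropping chip controls and, of the rest, the dimmest 40%, limma 3.58.1 in R 4.3.3 (lmFit, eBayes, two-sided, Benjamini-Hochberg over 5244 probe sets, threshold 0.05) compared the groups. A gene is its brightest tested probe set. Array signal carries no read depth, and 3 arrays a group limit the precision. Tested on simulated data for this comparison with 200 of 5244 probe sets changed, the fit recovered 63.5% of 2-fold and 94% of 4-fold changes. It made 9.55 false calls per run. The simulated noise was normal and independent between probe sets, and the shares are averages over probe sets of all levels. They need not hold for the dim members or where fewer genes change.

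The members and lists were chosen with earlier results of these data known. The genes named were all members, up to 2 genes of each other list with the smallest p, and a fixed set (among them Slc6a2, Slc18a2, Ddc, Maoa, Adra1d, Npy1r, S100b, Acta2, Ucp1), of which some are not reported here. Genes listed as below the control level on every array were picked for that, after their values were seen, and other additions are marked. Same-lettered chips did not deviate together (correlations -0.09, -0.04 and -0.05). Alternatives were other pseudocounts, scalings, filters and variance models, a replicate block, averaging the probe sets of a gene, and omitting arrays one by one. Figures used matplotlib 3.10.9.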

Additional observations from a re-analysis of the deposited data

How the results depend on the processing

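The count of 0 members past limma's adjusted threshold held in all 8 alternatives with 6 arrays and in the 6 that left out 1 array. The smallest adjusted p of a member over these was 0.151, for Syt5. The count lower at an unadjusted p under 0.05 was 2 or 3 in the other alternatives, and 1 (Th) of 2 genes left when the dimmest 60% were left out, where 2 genes were lower, since fewer genes were tested. Leaving out single arrays gave 1 to 4. Members with a difference below 0 numbered 4 to 6 of 6 as arrays were left out and 9 of 9 without a filter, and the median ran from -0.62 to -0.27. Npy changed sign, between -0.39 and 0.13, and Gap43 between -0.63 and 0.03, the cause not being tested. With the chip letter as a replicate block, 2 members were lower at an unadjusted p under 0.05 (0 adjusted) and the median was unchanged at -0.40. Letters alone do not show that chips were paired. Low signal limits all members but Th and Npy.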
